A study of Mus musculus with 64 samples.

Results

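The genes described here encode most subunits of the proteasome other than Psmc5, with a few of its assembly chaperones. They were taken as the protein-coding genes whose GRCm38 symbol starts with Psma, Psmb, Psmc or Psmd followed by a digit, with Psmc5 left out, which gave 39 of the 21226 protein-coding genes listed in at least 1 count table. RNA was measured in 64 libraries of progenitor cells sorted from livers of C57BL/6 fetuses, aged 13 to 14 days post coitum by the labels except for 1 CMP HET library at 14.5 days. Fetuses were homozygous mutant for Smarcd2 (KO, Smarcd2 -/-), heterozygous (HET, Smarcd2 +/-) or wild type (WT). How the mutant allele was made is not given in the sources used here. LSK cells, sorted as lineage-negative cells carrying both c-Kit and Sca-1 and known to include the blood stem cells, gave 9 KO, 9 HET and 5 WT libraries. Common myeloid progenitors (CMP) gave 4 KO, 7 HET and 3 WT libraries, granulocyte-monocyte progenitors (GMP) gave 3, 7 and 3, and megakaryocyte-erythroid progenitors (MEP) gave 4, 7 and 3. The question was whether RNA of the other subunits changed where Psmc5, the gene next to Smarcd2, fell.

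The proteasome degrades proteins marked with ubiquitin. Its core particle is a stack of rings of alpha subunits (Psma genes) and beta subunits (Psmb genes), and the proteolytic sites lie on Psmb5, Psmb6 and Psmb7. The regulatory particle that caps the core has a base, with a ring of ATPases (Psmc genes) that unfolds substrates, and a lid (most Psmd genes) that holds the deubiquitinase Psmd14. Psmc5 is one of the ATPases of that ring, and each ATPase occupies its own position. In mammalian cells with impaired proteasomes, the transcription factor NFE2L1 is known to raise most subunit genes together. Interferon replaces the proteolytic subunits with Psmb8, Psmb9 and Psmb10 to form the immunoproteasome.

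Of the 39 genes, 7 encode the alpha ring, 7 the constitutive beta ring, 3 the immunoproteasome, 5 the other base ATPases, 3 the base subunits without ATPase activity, 8 the lid and 3 chaperones that assemble the base. The rest are Psma8 and Psmb11, core subunits known from testis and thymus, and Psmc3ip, a meiotic recombination factor that the symbol rule takes although it is no subunit. A filter on low counts kept 38 of the 39 genes in every population. Psmb11 was the gene left out, with 6 reads in all KO, 2 in all HET and 0 in all WT LSK libraries. By gene span, 10 of the 39 genes overlap another protein-coding gene. The libraries do not mark strand, so reads of such pairs cannot be told apart.

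Smarcd2 was near 0 in the libraries labelled KO in all 4 populations. Its level was 1.28 ± 0.411 CPM in KO, 33.7 ± 14.1 CPM in HET and 55.9 ± 8.54 CPM in WT LSK cells (SD, n = 9, 9 and 5; CPM is the read count scaled to a common TMM library size). In KO libraries it reached at most 1.47 CPM in CMP, 1.06 in GMP and 1.79 in MEP, while WT libraries held at least 91.2, 84.8 and 84.0 CPM. The number of reads assigned to genes lay between 4327582 and 24069833 in LSK libraries, ran from 1577073 to 8092644 in CMP, from 1006090 to 6300070 in GMP and from 1488328 to 5646315 in MEP. For a transcript length index of each library, the log2 level of each gene was taken relative to its mean over the libraries of that population. The index is the median of these values over long-transcript genes (over 5000 bases) minus that over short-transcript genes (under 1500 bases). It lay more than 1 from 0 in 4 GMP libraries (KO 6, KO 15, HET 7 and HET 8) and 2 MEP libraries (KO 15 and HET 8), and in none of LSK or CMP. Summed markers of stem cells stood at 2375 ± 192 CPM in KO and 2309.7 ± 165 CPM in WT LSK libraries. Whether each library is a different fetus is not stated in the labels, and the p-values therefore describe variation among libraries.

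Psmc5 RNA was lowered, not lost, in LSK cells without Smarcd2, and by an intermediate amount in heterozygous LSK cells. Psmc5 (ENSMUSG00000020708) occupies bases 106256154 to 106263120 of chromosome 11 on the plus strand (GRCm38), and Smarcd2 follows on the minus strand from 106263179 to 106272972, so that the 3′ ends face each other across 58 bases. In LSK cells Psmc5 ran from 70.2 to 90.7 CPM (median 83.8) in KO libraries, from 137 to 177 CPM (median 164) in HET libraries, and stood at 258, 234, 219.9, 237 and 232 CPM in WT libraries. No library of one genotype overlapped another. The log2 fold change of KO against WT was -1.53 ± 0.07 (SE; edgeR adjusted p 2.06e-15), which left 34.7% of the WT level, and that of HET against WT was -0.55 ± 0.07 (adjusted p 0.000109). In bulk RNA, fewer cells of a type and less RNA per cell cannot be told apart.

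The 3 other populations gave lower Psmc5 in CMP and a wider spread in GMP and MEP. In CMP it was 128, 117, 127 and 121 CPM in KO libraries and 251, 234 and 224 CPM in WT libraries, or -0.94 ± 0.17 as a log2 fold change (adjusted p 0.00425), and the HET libraries ran from 107 to 206 CPM (median 168). With the series number as a block the CMP adjusted p was 0.0563. Series 34 held only KO libraries (KO 13 and KO 15) in CMP, GMP and MEP. Genotype and series are therefore partly confounded in these 3 populations. GMP levels were 469.6, 174 and 138 CPM in KO and 170.4, 393 and 404 CPM in WT libraries, and MEP levels were 154, 129, 131 and 435 CPM in KO and 277, 247 and 213 CPM in WT. HET libraries ran from 14.6 to 414 CPM in GMP and from 139 to 652 CPM in MEP. The KO and WT groups overlapped in both populations, and the log2 fold changes of -0.31 ± 0.81 and -0.21 ± 0.56 did not pass (adjusted p 0.943 and 0.934). Without the libraries with a length index beyond 1, Psmc5 passed in MEP at a log2 fold change of -0.82 (adjusted p 0.0259).

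**Figure D1:**
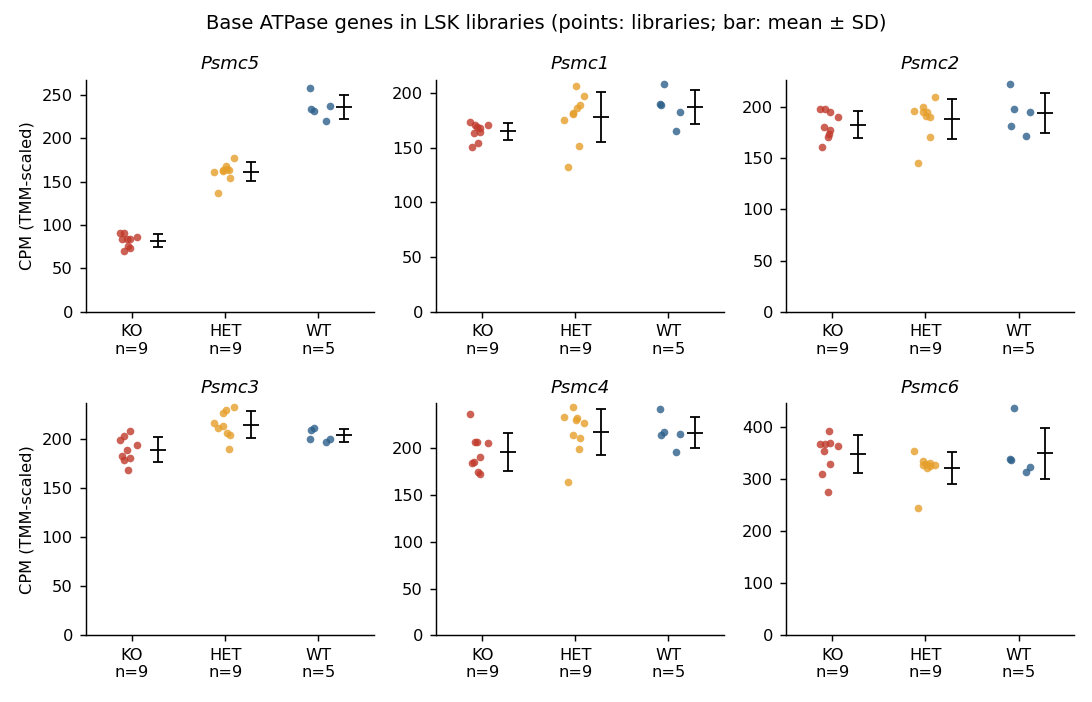
Levels of Psmc5 and the 5 other base ATPase genes in LSK libraries, in CPM of the TMM-scaled library, for KO (n = 9), HET (n = 9) and WT (n = 5). Points are libraries and bars are mean ± SD. The 3 genotypes separate for Psmc5 and overlap for Psmc1, Psmc2, Psmc3, Psmc4 and Psmc6.

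Set against the other ATPases of its own library, Psmc5 was lower in KO than in WT libraries of each population. The ratio of Psmc5 to the geometric mean of Psmc1, Psmc2, Psmc3, Psmc4 and Psmc6, each per kilobase of its principal transcript, was 0.516 ± 0.0361 in KO, 0.969 ± 0.0507 in HET and 1.38 ± 0.0768 in WT LSK libraries (SD, n = 9, 9 and 5). In CMP the KO ratios were 0.716, 0.608, 0.651 and 0.547, against 1.17, 1.21 and 1.12 in WT. MEP gave 0.677, 0.582, 0.541 and 0.540 in KO and 1.09, 1.29 and 1.12 in WT libraries, and GMP gave 1.02, 0.780 and 0.332 in KO and 1.14, 1.17 and 1.14 in WT. No KO library reached the lowest WT ratio of its population. KO and HET libraries overlapped in CMP, GMP and MEP, and GMP KO 6 and KO 15 lie beyond the length index limit. In LSK, Psmc5 was the lowest of the 6 ATPases per kilobase in every KO library, and the highest or second highest in every WT library. The ratio was chosen after the levels were seen and is given without a test.

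**Figure D2:**
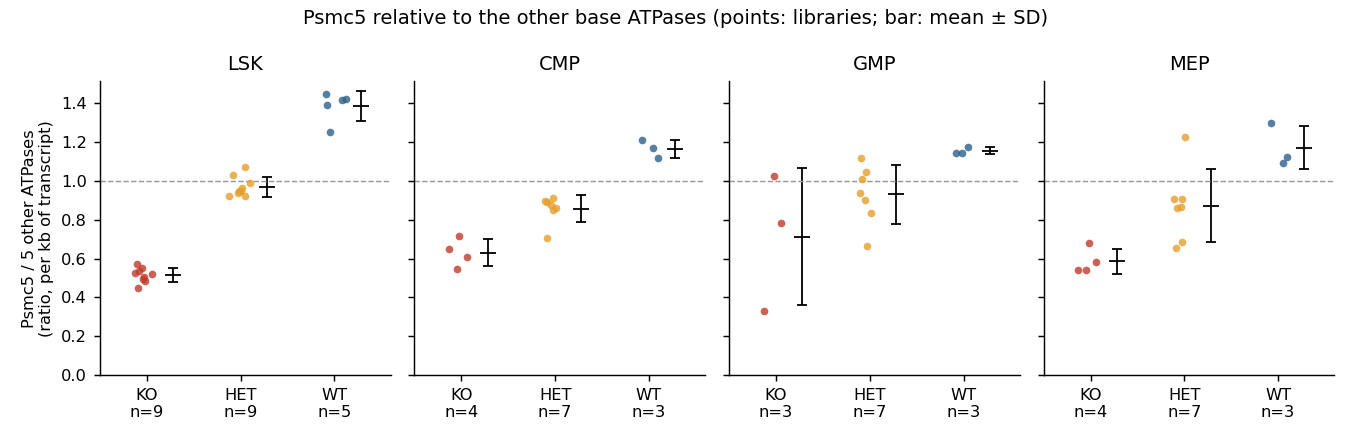
Ratio of Psmc5 to the geometric mean of the 5 other base ATPases, per kilobase of transcript, in each library of LSK, CMP, GMP and MEP. Points are libraries, bars are mean ± SD, and the dashed line marks a ratio of 1. In all 4 populations the KO libraries lie below the WT libraries, from 0.332 to 1.02 in GMP KO and from 1.14 to 1.17 in GMP WT.

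None of the 5 other ATPase genes passed as higher in LSK cells of KO fetuses. Psmc1 ran from 150.2 to 173 CPM (median 167) in KO libraries, from 132 to 206 CPM (median 182) in HET libraries, and was 189.6, 189, 165, 182 and 208 CPM in WT libraries. Psmc2 ran from 161 to 198 CPM (median 180.5) in KO and from 145 to 209 CPM (median 195) in HET libraries, against 223, 181, 172, 195 and 198 CPM in WT. The libraries of the 3 genotypes overlapped for both genes. Psmc3 ran from 168 to 208 CPM (median 189) in KO and from 190.0 to 233 CPM (median 213) in HET libraries, with 199.9, 209, 197, 199.8 and 211 CPM in WT. For Psmc4 the KO libraries ran from 172 to 236 CPM (median 190.4), the HET libraries from 164 to 244 CPM (median 226), and the WT libraries held 241, 214, 196, 215 and 217 CPM. In the KO libraries, 6 of 9 for Psmc3 and 5 of 9 for Psmc4 lay below every WT library. Psmc6, the most abundant of the ATPases in CPM, ran from 276 to 393 CPM (median 364) in KO and from 245 to 353 CPM (median 327) in HET libraries, beside 339, 336, 314, 324 and 436 CPM in WT.

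For KO against WT, all 5 log2 fold changes were negative and none passed, although Psmc1 passed as lower with a spike-in covariate (adjusted p 0.0295). They were -0.18 ± 0.08 for Psmc1, -0.09 ± 0.08 for Psmc2, -0.11 ± 0.06 for Psmc3, -0.15 ± 0.08 for Psmc4 and -0.01 ± 0.09 for Psmc6 (SE; edgeR adjusted p from 0.111 to 0.965). Their 95% intervals, each for its gene alone, give the rise allowed by this fit without covariates. Intervals of the other fits are not given here. The upper bounds were -0.02, 0.07, 0.02, 0.02 and 0.17 in the same order, so that the largest rise inside an interval was 12.5%, for Psmc6. The WT level of Psmc6 includes WT24.10 at 436 CPM, far from the other WT libraries. With each library left out, the Psmc6 log2 fold change ran from -0.04 to 0.08, so that its sign depends on single libraries. Psmc3 fell against HET, with a log2 fold change of -0.18 ± 0.05 (adjusted p 0.0216).

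Across the whole set, subunit genes of the lid and of the core rings were lower in KO than in WT LSK cells, at 77.8% (Psmd6) to 85.3% (Psmd13) of the WT level where they passed. At an edgeR adjusted p under 0.05, 12 of the 38 genes fell and 0 rose, while among all 13878 genes tested 9.53% rose and 9.28% fell. DESeq2 called 0 higher and 12 lower, and at an unadjusted p under 0.05 edgeR gave 0 higher and 22 lower. Over all genes and in either direction, DESeq2 called 20.2% and the unadjusted threshold 32.1%. The median log2 fold change was -0.18 over the 38 genes and 0.01 over all genes tested, and -0.09 and 0.02 with the transcript length index as a covariate. Of the 38, 33 had a negative value, against 48.0% of all genes tested. In the lid all 8 genes were negative and 6 fell, in the alpha ring all 7 were negative and 4 fell, and in the constitutive beta ring all 7 were negative and 2 fell. Among the base ATPases, base subunits without ATPase activity, immunoproteasome and base chaperones, 0 of 14 passed in either direction.

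Among the lid genes Psmd6, a structural subunit, showed the largest change. In KO LSK libraries Psmd6 ran from 207 to 259.7 CPM (median 219.7), against 263, 299, 295, 309 and 271 CPM in WT libraries. The KO and WT libraries did not overlap, and the log2 fold change was -0.36 ± 0.08 (SE; adjusted p 0.00334). In KO LSK libraries Psmd8 ran from 207 to 264 CPM (median 227), against 292, 277, 260.3, 302 and 261 CPM in WT libraries, and 8 of 9 KO libraries lay below all WT libraries (log2 fold change -0.29 ± 0.06, adjusted p 0.00294). Psmd8 is another structural lid subunit. Psmd13 ran from 138 to 168 CPM (median 149) in KO libraries and was 176, 176, 168, 178 and 174 CPM in WT, with 8 of 9 KO libraries below all WT libraries and a log2 fold change of -0.23 ± 0.06 (adjusted p 0.00532).

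Psmd7, the partner that holds the deubiquitinase Psmd14 in the lid, ran from 172 to 233 CPM (median 202) in KO libraries, with 265, 232, 257, 254 and 231 CPM in WT (log2 fold change -0.30 ± 0.08, adjusted p 0.00903). Psmd14 itself ran from 252 to 322 CPM (median 286) in KO libraries, with 344, 337, 310.4, 335 and 367 CPM in WT (-0.26 ± 0.08, adjusted p 0.0177). In both cases 8 of 9 KO libraries lay below every WT library. Psmd12, also of the lid, ran from 225 to 275 CPM (median 243) in KO libraries and was 303, 293, 298, 301 and 298 CPM in WT, without overlap (-0.28 ± 0.08, adjusted p 0.0153). Psmd3 and Psmd11, the lid genes that did not pass, had log2 fold changes of -0.20 and -0.13.

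**Figure D3:**
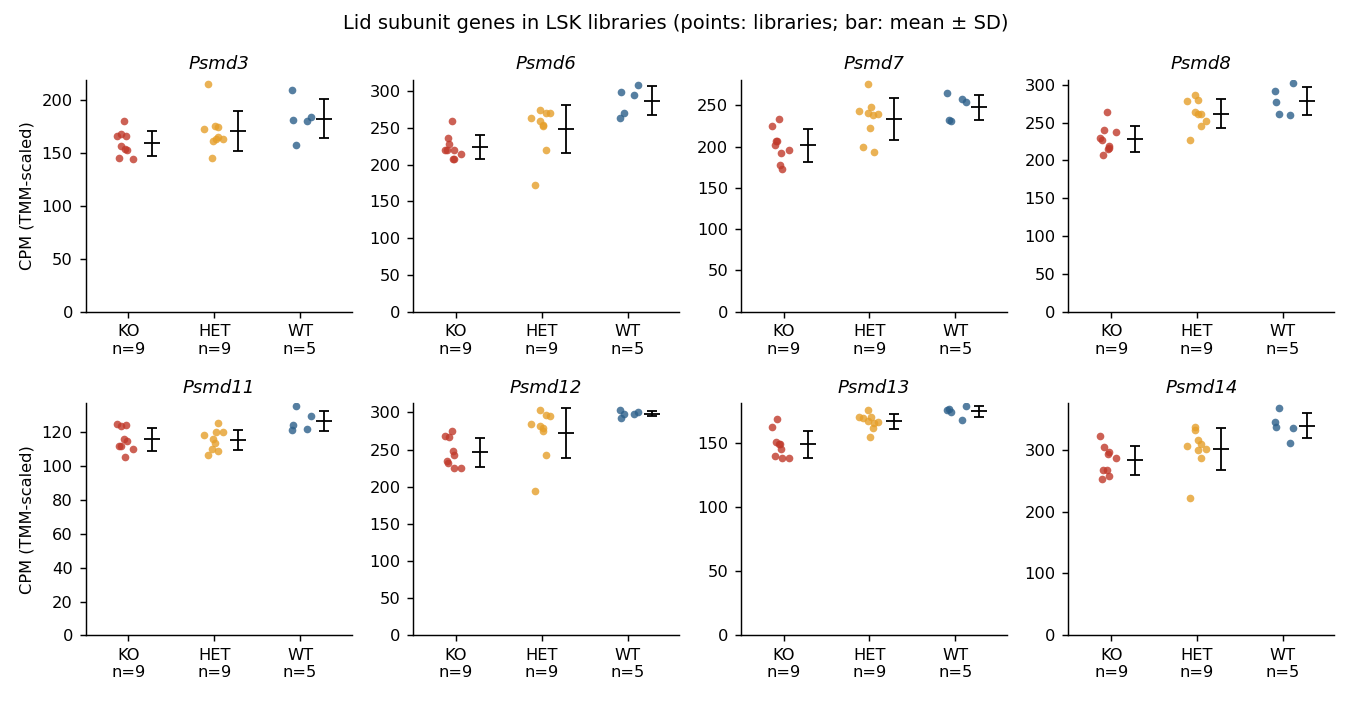
Levels of the 8 lid subunit genes of the set in LSK libraries, in CPM of the TMM-scaled library, for KO (n = 9), HET (n = 9) and WT (n = 5). Points are libraries and bars are mean ± SD. KO and WT libraries do not overlap for Psmd6 and Psmd12, and overlap for the other 6 genes.

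In the alpha ring, Psma3, Psma4, Psma6 and Psma7 fell, with log2 fold changes of -0.25, -0.25, -0.27 and -0.26 (edgeR adjusted p 0.0235, 0.0448, 0.0485 and 0.022). The values of Psma1, Psma2 and Psma5 were -0.18, -0.16 and -0.16 and did not pass. Of the proteolytic beta subunits, Psmb6 and Psmb7 fell (-0.24 and -0.25, adjusted p 0.0303 and 0.0239), while Psmb5 had -0.15 (adjusted p 0.231). The structural beta genes Psmb1, Psmb2, Psmb3 and Psmb4 had values from -0.24 to -0.13. Counted over libraries, every KO library was below every WT library for 4 of the 38 genes (Psma4, Psmb7, Psmd6 and Psmd12), against 4.01% of all genes tested, and above every WT library for 0, against 2.77%.

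These calls are small and depend on how the libraries are modelled. The transcript length index averaged 0.0811 ± 0.143 in KO, -0.0231 ± 0.170 in HET and -0.120 ± 0.110 in WT LSK libraries, and 12 of the 39 genes have a longest transcript under 1500 bases and 0 one over 5000. With the index as a covariate 3 of the 38 genes fell (Psmd8 and Psmd13 of the 12, and Psmd3) and, among all 13878 genes, 685 fell. The share of spike-in reads was 0.781 ± 0.239% in KO and 0.516 ± 0.139% in WT libraries, and with it as a covariate 10 genes fell, 7 of them among the 12 and the others being Psma2, Psmc3ip and the ATPase gene Psmc1 (adjusted p 0.0295). With each library left out in turn, between 7 and 13 genes fell, with 7 without KO19.5 or without WT22.8. Psmd6, Psmd7, Psmd8, Psmd12 and Psmd13 passed in all 23 such fits.

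**Figure D4:**
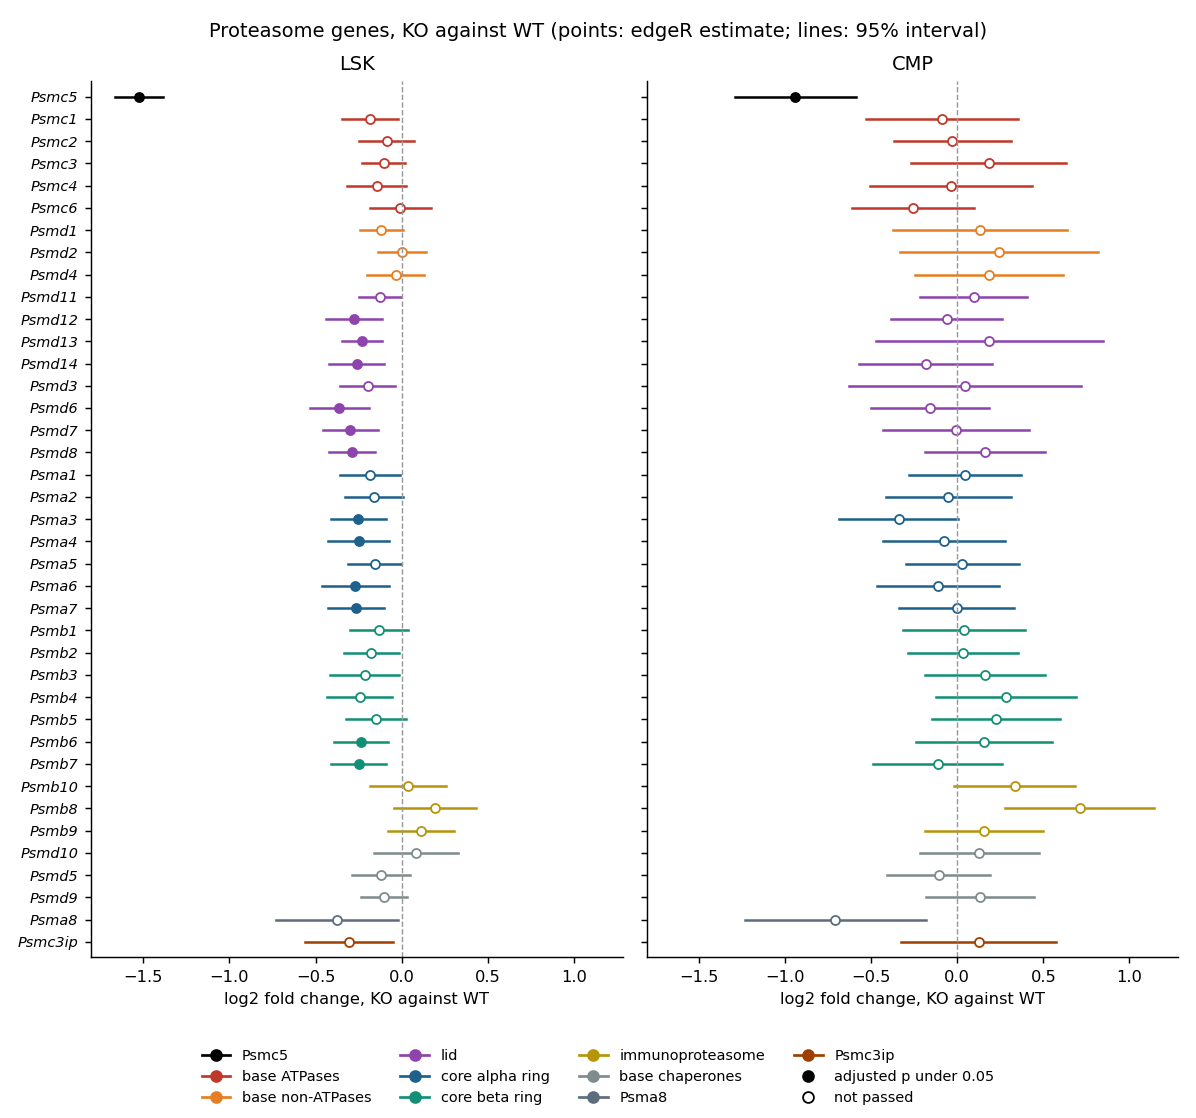
Log2 fold change of KO against WT for 38 proteasome genes and Psmc5 in LSK (left) and CMP (right). Points are edgeR estimates, filled where the adjusted p was under 0.05, and lines are 95% intervals. In LSK the filled points below 0 are Psmc5, 6 lid genes, 4 alpha ring genes and 2 beta ring genes, and in CMP the single filled point is Psmc5.

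None of the base subunits without ATPase activity passed. Psmd2 and Psmd1, the large scaffolds of the base, had log2 fold changes of 0.00 ± 0.07 and -0.12 ± 0.06 in LSK, and Psmd4, a ubiquitin receptor, had -0.03 ± 0.08 (SE; adjusted p 0.989, 0.18 and 0.812). The base chaperones Psmd5, Psmd9 and Psmd10, which load ATPases into the ring, had -0.12, -0.10 and 0.09, and none passed. Among the 30 constitutive subunit genes in all, the highest upper bound of a 95% interval was 0.17, that of Psmc6. Psma8 had -0.38 and Psmc3ip -0.30 (adjusted p 0.13 and 0.0897), at means of 10.97 and 29.9 CPM in KO and 14.4 and 37.0 CPM in WT.

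Levels per kilobase of principal transcript differed widely between subunits that the particle holds in equal number. Over Psmc5 and the 30 constitutive genes, mean levels in WT LSK cells ran from 44.4 CPM per kilobase (Psmd11) to 696 (Psma1), with a median of 150.4. Psma1, Psma7, Psma6 and Psmb2 held the first 4 ranks in both KO and WT. Psmc5 stood at rank 28 of 40 in KO cells, with 62.3 CPM per kilobase, and at rank 9 in WT, with 179.6. Psmc6, Psmc4, Psmc3, Psmc1 and Psmc2 stood at ranks 9, 13, 17, 19 and 20 in KO and at 14, 16, 19, 20 and 21 in WT.

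Promoter sequence was available from RefSeq (GRCm38.p6) for 32 of the 39 genes, as windows from 250 bases before to 50 after the start. The letters TGACNNNGC, the core of the antioxidant response element that NFE2L1 and related factors bind, were searched on both strands. They stood in windows of 5 of the 32 genes (15.6%) and of 14.0% of all 27025 genes of the table. The 5 genes are Psmb5, Psmb6, Psmc6, Psmd9 and Psmd12. The core of the interferon-stimulated response element stood in 3 of the 32 (Psmb3, Psmd4 and Psmd9; 9.38%) and in 3.99% of all genes, and in 0 of the 3 immunoproteasome genes. The 4 subunit windows with TGACNNNGC are shown to compare 2 genes that fell in KO LSK cells, Psmb6 and Psmd12, with 2 that did not pass, Psmb5 and Psmc6. Capitals mark the match, on either strand, and a match is a description of letters only.
Psmb6 (GRCm38.p6, chr11:70525107-70525406, plus strand): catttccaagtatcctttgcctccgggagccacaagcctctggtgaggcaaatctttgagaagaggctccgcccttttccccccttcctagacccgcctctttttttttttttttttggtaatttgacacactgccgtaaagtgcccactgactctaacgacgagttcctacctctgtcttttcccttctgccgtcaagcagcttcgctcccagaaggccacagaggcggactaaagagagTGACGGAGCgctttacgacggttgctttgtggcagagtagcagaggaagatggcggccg
Psmd12 (GRCm38.p6, chr11:107479278-107479577, plus strand): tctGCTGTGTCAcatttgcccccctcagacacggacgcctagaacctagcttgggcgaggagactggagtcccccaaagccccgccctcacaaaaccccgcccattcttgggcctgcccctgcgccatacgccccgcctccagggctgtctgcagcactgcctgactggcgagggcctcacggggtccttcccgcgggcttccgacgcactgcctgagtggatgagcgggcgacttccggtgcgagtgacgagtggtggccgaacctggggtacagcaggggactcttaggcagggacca
Psmb5 (GRCm38.p6, chr14:54617946-54618245, minus strand): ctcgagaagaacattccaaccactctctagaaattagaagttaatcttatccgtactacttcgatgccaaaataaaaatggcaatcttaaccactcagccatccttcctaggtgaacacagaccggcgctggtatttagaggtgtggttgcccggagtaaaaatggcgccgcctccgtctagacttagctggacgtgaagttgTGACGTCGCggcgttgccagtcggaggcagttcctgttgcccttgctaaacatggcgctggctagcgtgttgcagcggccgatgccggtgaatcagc
Psmc6 (GRCm38.p6, chr14:45329574-45329873, plus strand): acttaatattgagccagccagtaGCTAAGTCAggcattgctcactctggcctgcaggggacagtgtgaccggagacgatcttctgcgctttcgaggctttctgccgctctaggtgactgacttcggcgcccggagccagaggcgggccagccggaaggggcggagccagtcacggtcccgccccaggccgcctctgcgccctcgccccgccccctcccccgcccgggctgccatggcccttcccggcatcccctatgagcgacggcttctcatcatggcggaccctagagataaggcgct

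Heterozygous LSK cells, with 68.4% of the WT level of Psmc5, showed no proteasome gene past the threshold against WT. At an adjusted p under 0.05, edgeR called 0 of 38 in either direction (0% of all genes higher and 0.00721% lower, the 1 gene being Psmc5), DESeq2 also called 0, and at an unadjusted p under 0.05 there were 0 higher and 6 lower, where DESeq2 called 0.223% of all genes and the unadjusted threshold 11%. The smallest p values were those of Psmb4 (log2 fold change -0.30 ± 0.09), Psma5 (-0.19 ± 0.07), Psmd6 (-0.21 ± 0.08) and Psmd14 (-0.17 ± 0.08), with adjusted p from 0.336 to 0.426. The mean level in LSK followed the order KO below HET below WT for 24 of the 38 genes and the reverse order for 2. These counts were 7 and 10 in CMP, 2 and 8 in GMP, and 1 and 28 in MEP. The GMP and MEP means include the libraries with a length index beyond 1, MEP KO 15 and HET 8 among them. The share of all genes in either order was not counted, so the counts are a description only.

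In KO against HET, 5 of 38 genes fell and 0 rose (5.17% and 5.93% of all genes; 0 rose by DESeq2 or at an unadjusted p under 0.05, where 13.4% and 25.9% of all genes passed in either direction). The genes were Psmb6, Psmc3, Psmd8, Psmd13 and Psmd7. Psmb6 ran from 104 to 137 CPM (median 127) in KO and from 131 to 176 CPM (median 146) in HET libraries, and was 167, 149, 133, 159 and 127 CPM in WT. Its log2 fold change was -0.26 ± 0.06 against HET (SE; adjusted p 0.00892). Psmd8 had -0.20 ± 0.06, Psmd13 -0.16 ± 0.05 and Psmd7 -0.21 ± 0.07 (adjusted p 0.0205, 0.0269 and 0.0389). The KO libraries serve in both comparisons. With single libraries left out the count ran from 2 to 10, with 10 without HT20.4, a HET library, 2 without KO19.5 and 3 without KO19.6 or without KO22.2. Where no count filter was used, 1 gene fell.

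The 3 immunoproteasome genes had log2 fold changes above 0 in LSK cells, and none passed. Psmb8 ran from 69.1 to 118 CPM (median 95.3) in KO and from 69.2 to 112 CPM (median 88.1) in HET LSK libraries, with 89.5, 83.7, 79.5, 77.3 and 81.9 CPM in WT. Psmb9 ran from 33.9 to 48.0 CPM (median 42.1) in KO and from 37.6 to 48.9 CPM (median 39.6) in HET libraries, with 42.3, 36.6, 34.6, 39.0 and 41.2 CPM in WT. Psmb10 ran from 38.0 to 51.8 CPM (median 45.9) in KO and from 36.0 to 53.4 CPM (median 49.4) in HET libraries, beside 55.8, 48.3, 39.6, 41.0 and 36.7 CPM in WT. Genotypes overlapped for all 3, and 5 of 9 KO libraries for Psmb8 and 4 of 9 for Psmb9 lay above every WT library. The log2 fold changes were 0.19 ± 0.12 (95% interval -0.04 to 0.43), 0.11 ± 0.09 (-0.08 to 0.31) and 0.04 ± 0.11 (-0.19 to 0.26), and none passed (edgeR adjusted p 0.257, 0.425 and 0.854).

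Other genes of the class I antigen presentation list, which takes the peptides that the immunoproteasome makes, rose in the same cells. Of 10 tested, 6 rose and 0 fell, with a list median of 0.45, against 9.53% and 9.28% of all genes. The list was chosen with earlier results of these data known, so this count is a description only. With the length index as a covariate 5 rose and the median was 0.31. Tap1, a subunit of the peptide transporter, ran from 47.2 to 73.8 CPM (median 58.1) in KO and from 27.4 to 38.9 CPM (median 37.9) in WT libraries (log2 fold change 0.76, adjusted p 0.000616). Tapbp, which loads peptides onto class I, had 0.53, and Nlrc5, the transactivator of class I genes, had 1.82 (adjusted p 0.000382 and 0.00181). Psmb9 and Tap1 overlap on opposite strands, so a share of the reads of either could belong to the other.

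Several genes for proteins that bind or assemble the proteasome also fell. Of 9 bound cofactors, 5 fell and 0 rose in KO LSK cells, against 9.28% and 9.53% of all genes, and 3 fell with the length index as a covariate. The cofactor and assembly lists were also chosen with earlier results of these data known, so their counts are descriptions only. Uchl5, a deubiquitinase docked on the base, ran from 214 to 281 CPM (median 264) in KO, from 245 to 406 CPM (median 319.9) in HET and from 345 to 437 CPM (median 387) in WT libraries, with no overlap of KO and WT. Its log2 fold change of -0.58 (adjusted p 9.32e-05) was more negative than that of any of the 38 genes tested under the symbol rule. Usp14, the other docked deubiquitinase, had -0.33, Txnl1, a thioredoxin-like protein bound to the proteasome, -0.37, and Sem1, the smallest lid subunit, -0.38 (adjusted p 0.00373, 0.00527 and 0.0448). Of 6 core assembly genes tested, Psmg1 and Psmg2, which form the first chaperone pair of the alpha ring, fell (-0.36 and -0.35, adjusted p 0.0062 and 0.000906), and 0 rose, against the same 9.28% and 9.53% of all genes. With the length index 1 of the 6 fell.

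Lists of genes upstream of or parallel to the subunits were likewise chosen with earlier results known. Their calls in LSK stood beside 9.53% of all genes that rose and 9.28% that fell. Among 13 genes of the NFE2L1 axis, 1 rose and 1 fell, near those shares, with a median of -0.05, and with the length index 0 passed. Sqstm1, an autophagy receptor in this list as a target, rose (0.30, adjusted p 0.0296), and Vcp, the ATPase that extracts NFE2L1 from the endoplasmic reticulum, fell (-0.19, adjusted p 0.0333). Nfe2l1 itself had 0.17 (adjusted p 0.218). Of 5 activators and inhibitors and of 6 ubiquitin genes, 0 passed in either direction by edgeR, with 0 and 2 at an unadjusted p under 0.05, and with the length index 1 ubiquitin gene rose and 1 fell. Among 10 autophagy genes, Map1lc3b and Gabarapl1, both of the family that coats autophagosomes, rose (0.28 and 0.25, adjusted p 0.0166 and 0.0172) and Atg5 fell (-0.33, adjusted p 0.0059), against 9.53% and 9.28% of all genes. With the length index 1 of the 10 rose and 0 fell.

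In CMP no proteasome gene passed, while Psmc5 fell to 52.1% of WT. EdgeR called 0 of 38 in either direction for KO against WT (1.02% of all genes higher and 0.823% lower). At an unadjusted p under 0.05 there was 1 higher and 1 lower, and DESeq2 called 1 higher, where 12.9% and 3.64% of all genes passed in either direction. The median log2 fold change was 0.04 over the 38 genes and -0.01 over all genes tested. Of the 38, 16 were negative, against 51.2% of all genes tested. Intervals were wider than in LSK, with upper bounds for the other ATPases from 0.09 (Psmc6) to 0.63 (Psmc3).

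The ATPase genes overlapped between genotypes in CMP. Psmc1 was 262, 226, 249 and 255 CPM in KO and 261, 272 and 258 CPM in WT libraries. Psmc2 was 206, 245, 204 and 256 CPM in KO and 259.7, 207 and 229 CPM in WT. KO and WT libraries overlapped for both genes. Psmc3 was 226, 233, 228 and 306 CPM in KO and 209.7, 231 and 215 CPM in WT, and Psmc4 175, 193, 214 and 249.9 CPM in KO and 223, 217 and 200.3 CPM in WT. Psmc6 was 318, 405, 425 and 403 CPM in KO and 548, 363 and 482 CPM in WT. The 5 log2 fold changes ran from -0.26 (Psmc6) to 0.18 (Psmc3).

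Psmb8, the immunoproteasome counterpart of Psmb5, had the smallest p in CMP. It was 104, 139.7, 147 and 191 CPM in KO libraries and 99.6, 97.1 and 69.4 CPM in WT, and the HET libraries ran from 74.1 to 127 CPM (median 102). All 4 KO libraries lay above all WT libraries, as for 2 of the 38 genes (Psmb8 and Psmd2), against 8.97% of all genes tested. The log2 fold change of 0.71 ± 0.21 did not pass in edgeR (adjusted p 0.0957) and passed in DESeq2 and with the length index as a covariate (adjusted p 0.0251 and 0.0308). It was 0.44 with the series number as a block and 0.43 with a spike-in covariate, with adjusted p 0.725 and 0.377. Of the KO libraries, only KO 6 and KO 11 share a series with WT libraries. Spike-in shares were 0.242 ± 0.124% in KO and 0.144 ± 0.0749% in WT CMP libraries.

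Psmb10 was 57.9, 57.8, 54.6 and 77.2 CPM in KO and 48.8, 57.8 and 40.9 CPM in WT CMP libraries, which overlapped (log2 fold change 0.33 ± 0.17). Psmb9 was 31.5, 32.6, 29.0 and 33.3 CPM in KO and 30.1, 30.5 and 24.4 CPM in WT (0.15 ± 0.16). Neither passed (edgeR adjusted p 0.422 and 0.762). Psma8, at low levels, was the gene with the smallest p among the negative values, with 3.94, 9.82, 10.5 and 7.72 CPM in KO and 11.9, 13.8 and 13.7 CPM in WT (-0.71 ± 0.25, adjusted p 0.197). It was the 1 gene of 38 with every KO library below every WT library, against 7.56% of all genes. In the class I list 1 of 9 genes rose, Irf1 (0.66, adjusted p 0.0356), in the autophagy list 1 of 8, the kinase Ulk1 (0.98, adjusted p 0.00464), and in the other pathway lists 0 by edgeR, with 0 to 1 higher and 0 to 3 lower at an unadjusted p under 0.05.

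Against HET, 0 of 38 genes passed in CMP in either direction (1.38% of all genes higher and 0.806% lower; 2 and 1 at an unadjusted p under 0.05 with 14.5% of all genes, 0 by DESeq2 with 3.85%), and in HET against WT 0 passed (0% and 0%; 0 and 0 unadjusted with 2.54% of all genes, 0 by DESeq2 with 0%). Psmb8 had 0.49 ± 0.16 against HET (SE; adjusted p 0.153), the smallest p of the 38.

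In GMP and MEP the summed level of the proteasome genes spread widely between libraries of 1 genotype. Summed over the set, proteasome genes made up 18945, 9892 and 18391 CPM in KO and 6711, 13576 and 14064 CPM in WT GMP libraries, and ran from 1155 to 20969 CPM in HET. In MEP the sums were 9695, 10535, 10814 and 39325 CPM in KO and 12164, 8236 and 9309.6 CPM in WT, and ran from 7916 to 23268 CPM in HET. The libraries with the lowest index held the highest sums, KO 15 and HET 8 in MEP and HET 7, KO 6 and KO 15 in GMP. GMP HET 8, with an index of 3.24, held the lowest sum, and its 10 most abundant genes took 83.8% of reads. In LSK the sums were 7329.9 ± 302 CPM in KO and 8297 ± 184 CPM in WT (SD, n = 9 and 5).

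**Figure D5:**
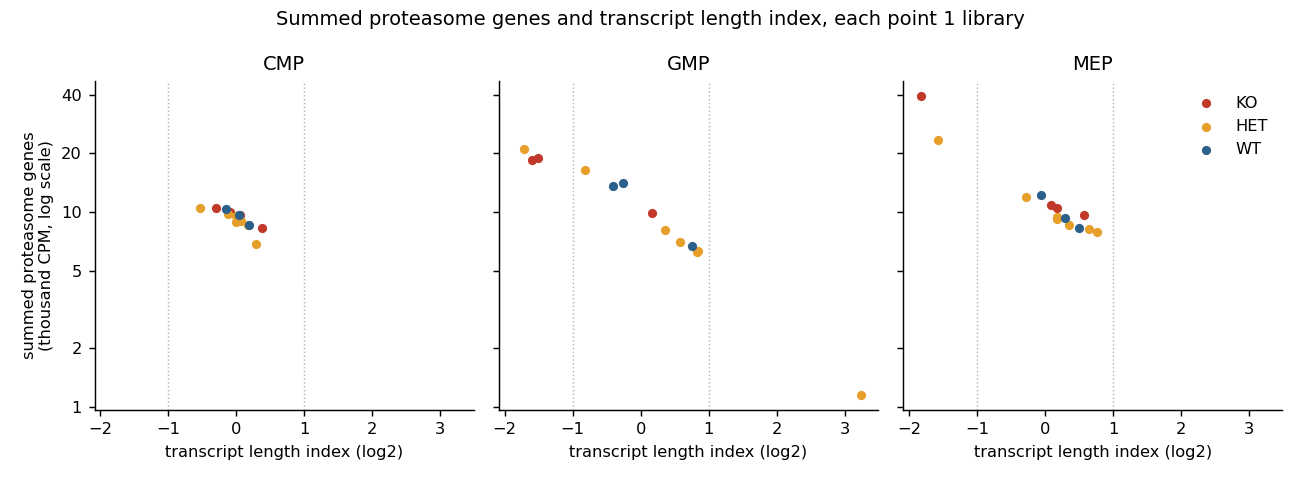
Summed CPM of the proteasome genes (log scale) against the transcript length index of each library, in CMP, GMP and MEP, coloured by genotype. Dotted lines mark an index of -1 and 1. Libraries beyond the lines, 4 in GMP and 2 in MEP, include the highest sums of each and the lowest of GMP, up to 39325 CPM in MEP KO 15 and down to 1155 CPM in GMP HET 8.

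In GMP edgeR called 0 of 38 genes for KO against WT (0.0409% of all genes higher and 0.163% lower; 0 and 0 at an unadjusted p under 0.05 with 6.45% of all genes, 0 by DESeq2 with 1.0%). The median log2 fold change was 0.51, and 0.00 over all genes tested. Without the 4 libraries beyond the index limit, which leaves KO 13 as the single KO library, it was -0.31, and with the index as a covariate -0.26. Psmb10 was 135, 47.0 and 125 CPM in KO and 17.8, 56.9 and 51.4 CPM in WT, and Psmb8 261, 138 and 219 CPM in KO and 40.4, 108 and 100.3 CPM in WT. All 3 KO libraries lay above WT for Psmb8, the 1 gene of 38 for which they did, against 5.83% of all genes tested. Their log2 fold changes of 1.27 ± 0.69 and 1.31 ± 0.82 did not pass (adjusted p 0.797 and 0.802). Psmb9 was 17.2, 19.45 and 34.01 CPM in KO and 11.3, 21.8 and 15.3 CPM in WT.

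Each ATPase gene of GMP spread widely within genotypes. Psmc1 was 504, 268 and 312 CPM in KO and 168, 407 and 474 CPM in WT libraries, and Psmc2 803, 249 and 734 CPM in KO and 167, 386 and 384 CPM in WT. Psmc3 was 624, 328 and 844 CPM in KO and 194, 533 and 534 CPM in WT. Psmc4 was 542, 264 and 551 CPM in KO and 154, 347 and 379 CPM in WT, and Psmc6 563, 364 and 450.3 CPM in KO and 334, 550.2 and 564 CPM in WT. KO 6 and KO 15, with the low index, lay above all WT libraries for Psmc2, Psmc3 and Psmc4, and KO 13 lay among the WT libraries for each of the 5 genes. Their log2 fold changes ran from -0.07 to 0.93, and the narrowest upper bound was 1.55, so that a rise was not detectable at this spread. GMP KO libraries also held 2.70, 2.52 and 3.06% spike-in reads, against 0.153, 0.233 and 0.149% in WT, and genotype and spike-in share cannot be told apart there.

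In MEP edgeR called 0 of 38 genes for KO against WT (0% of all genes higher and 0.00856% lower; 1 and 0 at an unadjusted p under 0.05 with 6.92% of all genes, 0 by DESeq2 with 1.01%). The median log2 fold change was 0.64, against 0.06 over all genes tested. Without KO 15 and HET 8 it was 0.12, and 0 passed, with 3 higher and 2 lower at an unadjusted p under 0.05. Psmc2 was 319, 327, 357 and 1583 CPM in KO and 318, 229 and 229.6 CPM in WT libraries. All 4 KO libraries lay above all WT libraries for Psmc2 as for 4 of the 38 genes, against 4.07% of all genes tested, the others being Psmb7, Psmd3 and Psmd4. Its log2 fold change was 1.32 ± 0.60 (adjusted p 0.685), and 0.39 without the 2 libraries (adjusted p 0.303). Psmb3, a structural beta subunit, was 117, 158, 164 and 1341 CPM in KO and 157, 107 and 129.6 CPM in WT (1.76 ± 0.84, adjusted p 0.685).

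Outside KO 15, KO and WT libraries of MEP overlapped for the other ATPases. Psmc1 was 307, 266, 281 and 505 CPM in KO and 311, 258 and 228 CPM in WT, and Psmc3 251, 241, 260.1 and 1132 CPM in KO and 269.7, 210.2 and 220.2 CPM in WT. Psmc4 was 209, 204, 242 and 1078 CPM in KO and 260.5, 199 and 187 CPM in WT, and Psmc6 439, 477, 504 and 1319 CPM in KO and 587, 385 and 437 CPM in WT. Of the immunoproteasome genes, Psmb8 was 16.9, 20.2, 16.6 and 123 CPM in KO and 42.2, 37.7 and 19.13 CPM in WT, and Psmb9 3.67, 5.70, 5.35 and 13.5 CPM in KO and 12.3, 9.79 and 6.71 CPM in WT. For Psmb9 the 3 KO libraries other than KO 15 lay below every WT library, and for Psmb8 2 of those 3 did. Without the 2 libraries their log2 fold changes were -0.85 and -0.91 (adjusted p 0.23 and 0.273). Psmb10 was 38.6, 42.8, 43.1 and 241 CPM in KO and 39.9, 26.4 and 40.9 CPM in WT.

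Summed markers of other cell types differed between libraries of these sorts. Summed macrophage markers were 0, 0.488, 2.25 and 4.61 CPM in KO and 12.7, 85.1 and 2.35 CPM in WT MEP libraries, and summed lymphoid markers 63.2, 32.7, 38.6 and 20.6 CPM in KO and 300.4, 629 and 114 CPM in WT. In LSK, summed erythroid markers ran from 76.9 to 241 CPM in KO and from 76.5 to 889 CPM in WT, with 0 of 5 called, and lymphoid markers from 75.5 to 256 CPM in KO and from 28.8 to 75.7 CPM in WT, with 1 of 4 tested higher. Of 6 stem cell markers 2 were higher in KO LSK cells and 0 lower. In CMP, summed granulocyte-monocyte markers were 2931, 2786, 3232 and 4088 CPM in KO and 3685, 4396 and 4814 CPM in WT, with 4 of 6 lower, and hepatocyte markers ran from 30.9 to 114 CPM in KO and from 282 to 718 CPM in WT, with 0 of 5 called. In GMP, summed granulocyte-monocyte markers were 13703, 11864 and 21695 CPM in KO and 12305, 30079 and 32500.2 CPM in WT, with 2 of 6 lower, or 4 of 6 with the length index as a covariate. GMP hepatocyte markers were 67.2, 17.0 and 79.9 CPM in KO and 37.1, 1167 and 326 CPM in WT, all 5 with negative log2 fold changes and 0 called. Of all genes tested, 9.53% were higher and 9.28% lower in KO than in WT LSK cells. These shares were 1.02% and 0.823% in CMP and 0.0409% and 0.163% in GMP. The GMP share with the length index as a covariate is not given here. The part of these markers in the proteasome levels was not tested.

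Against HET, edgeR called 0 of 38 genes in GMP (0.0735% of all genes higher and 0.188% lower; 0 at an unadjusted p under 0.05 with 12.3% of all genes and 0 by DESeq2 with 4.43%) and 0 in MEP (0.00856% higher and 0.00856% lower; 3 higher and 0 lower unadjusted with 7.23% of all genes, 0 by DESeq2 with 1.38%). In HET against WT edgeR called 0 in either population (0% of all genes), with 0 at an unadjusted p under 0.05 (0.498% of all genes in GMP and 0.762% in MEP) and 0 by DESeq2 (0% in each).

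The KO effect of no proteasome gene was found to differ between CMP, GMP and MEP. In 1 model over the 3 populations, edgeR called 0 of 38 for GMP minus CMP, 0 for MEP minus CMP and 0 for MEP minus GMP, where 0.0169%, 0% and 0.414% of all 11829 genes were called, and there were 0 in each at an unadjusted p under 0.05 (6.04%, 2.35% and 7.83% of all genes) and by DESeq2. The smallest p was that of Psmb9 for MEP minus GMP, a difference in log2 fold change of -1.07 (adjusted p 0.662).

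Among WT cells, Psmb9 was lower in MEP than in CMP, with means of 9.59 ± 2.79 CPM in MEP and 28.3 ± 3.41 CPM in CMP (SD, n = 3 each, levels scaled within each population) and a log2 difference of -1.48 ± 0.40 (SE, edgeR; adjusted p 0.0272). It was the 1 gene of 38 called lower there, and 0 were higher (2.23% and 0.871% of all genes); without the libraries numbered 2, without those numbered 5 or without those numbered 12 it was not called. Psmb8 had -1.35 ± 0.68 (adjusted p 0.569). For WT GMP against CMP and WT GMP against MEP, edgeR called 0 of 38 in either direction (0.676% higher and 0.355% lower, and 4.77% higher and 2.18% lower, of all genes), with 1 and 2 higher at an unadjusted p under 0.05 and 0 by DESeq2. Without the libraries beyond the index limit, all of them KO or HET, 5 genes were higher in GMP than in CMP and 3 higher in GMP than in MEP. The WT libraries were the same in that fit. Its share of all genes called is not given here, so these counts are a description only.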

How the data were processed

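The deposited tables hold raw counts of reads for each Ensembl gene and library. Per the submitters' processing notes the authors used featureCounts and the mm10 (GRCm38) build. Aligner and annotation were not given in the sources used here. Per the labels' protocols, cDNA was amplified by Smart-seq2 from sorted cells, so reads are not independent molecules and are unstranded. Symbols, positions and transcript lengths came from GENCODE release M21, matched by gene identifier, and spike-ins were left out of library sizes.

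Each population was fitted separately by edgeR 4.0.16 in R 4.3.3 (TMM factors, filterByExpr with minimum count 10 and minimum total 15, robust quasi-likelihood, 3 genotypes and no covariate), and p-values were adjusted by Benjamini and Hochberg's method over every gene that passed the filter, with 0.05 as threshold. A second model over the 11829 genes kept in CMP, GMP and MEP together tested whether KO effects, or WT levels, differed from one population to another. The SE is the absolute log2 fold change divided by the square root of F. The script was tested on simulated data. Alternatives were RLE scaling, no count filter, DESeq2 1.42.0, limma 3.58.1 with a random replicate block, covariates (series number, sex, spike-in share, length index) and each library left out. Fits without libraries whose index lay beyond 1 were added after the data were seen. The genes and the pathway lists were chosen with earlier results of these data known. Values per library are given for the ATPases, the immunoproteasome and the genes with the smallest p in KO against WT (up to 6 that passed, or 2 where none did). In the other comparisons up to 4 genes were named, and of each pathway list up to 4 that passed. Psmd7 in KO against HET, and genes given only with their log2 fold change, were named beyond this rule.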

Additional observations from a re-analysis of the deposited data

Results flagged for a closer look

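Of 113 groups of 4 to 10 libraries, 30 held 1 library far from the others, by the gap to its nearest neighbour over the range of the group; chance flags about 1 group in 20. Library HT20.4 of LSK stood apart for Psmc6 (245 CPM), Psmd14 (222 CPM) and the sum over the proteasome genes (6333 CPM). Library WT24.10 of LSK stood apart for Psmc6 (436 CPM). Library CMP KO 15 stood apart for Psmc3 (306 CPM) and Psmb10 (77.2 CPM). Library CMP HET 8 stood apart for Psmc1 (124 CPM) and Psmc3 (116 CPM). Library CMP HET 1 stood apart for the ratio of Psmc5 to the other ATPases (0.707). Library GMP HET 7 stood apart for Psmb8 (272 CPM), Psmb9 (38.3 CPM) and Psmb10 (131 CPM). Library MEP KO 15 stood apart for Psmc2 (1583 CPM), Psmc3 (1132 CPM), Psmc4 (1078 CPM), Psmc6 (1319 CPM), Psmc5 (435 CPM), Psmb8 (123 CPM), Psmb10 (241 CPM), Psmb3 (1341 CPM) and the sum over the proteasome genes (39325 CPM). Library MEP HET 8 stood apart for Psmc1 (475 CPM), Psmc2 (798 CPM), Psmc3 (1244 CPM), Psmc4 (593 CPM), Psmc5 (652 CPM), Psmb8 (82.7 CPM), Psmb10 (212 CPM), Psmb3 (531 CPM) and the sum over the proteasome genes (23268 CPM). MEP KO 15 and MEP HET 8 have length indices of -1.83 and -1.57, GMP HET 7 one of -1.71, and CMP HET 8 spent 52.5% of its reads on 10 genes. Their part in these levels was not tested.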

How the results depend on the processing

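In LSK, 12 genes were lower in KO than in WT. The count was 12 with RLE scaling and DESeq2, 11 with the series number as a block, 10 with the spike-in share and 9 with sex as a covariate. It fell to 7 when no count filter was used and to 3 with the length index as a covariate, and ran from 7 to 13 with each library left out. The 5 genes lower in KO than in HET became 1 when no count filter was used, and ran from 2 to 10 with each library left out. In CMP, 0 genes were higher in KO than in WT, against 1 by DESeq2, 1 with the length index, and 0 to 1 with each library left out, the gene being Psmb8. Against HET 1 was higher with the length index. In GMP the spike-in share, which is confounded with KO there, gave 21 lower genes in KO against WT and 15 against HET where there had been 0, and log2 fold changes of -2.81 for Psmc1, -2.77 for Psmc3 and -2.85 for Psmc4, opposite in sign to those without it. Apart from DESeq2, and from the length index in LSK KO against WT, the share of all genes called in each alternative is not given here. The counts from those alternatives are therefore descriptions only.

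Among WT cells, calls changed when the libraries beyond the index limit, all KO or HET, were left out of the shared fit. The WT libraries compared stayed the same. There were then 5 genes higher in GMP than in CMP, 3 higher in GMP than in MEP, 1 higher and 2 lower in MEP than in CMP. The share of all genes called in that fit is not given here, so these counts are a description only. Leaving out the libraries of single numbers gave 0 to 1 lower in MEP than in CMP. The causes of these changes were not tested. With the library number as a replicate block, fixed in edgeR or random in limma, 1 gene was lower in WT MEP than in WT CMP and 0 were called elsewhere, as without it. Of 40 pairs of same-numbered libraries of different populations, 26 had a correlation of deviations above 0.1 (median 0.18, lowest -0.45), and the labels do not say that a number marks a fetus. The lowest depth was 1006090 reads, in GMP, and CMP, GMP and MEP had 3 WT libraries each.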

Other observations

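Of the 39 genes, 6 lie on chromosome 11, the chromosome of Smarcd2 and Psmc5. Psmd12 is the nearest, 1207 kb away, and had a log2 fold change of -0.28 for KO against WT in LSK. Psmc3ip lies 5168 kb away (-0.30), Psmd3 7567 kb (-0.20), Psmb3 8549.7 kb (-0.21), Psmd11 25789.9 kb (-0.13) and Psmb6 35735 kb (-0.24). Of these 6, Psmd12 and Psmb6 passed in edgeR. The other 10 genes that fell lie on other chromosomes.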
